A study of Saccharomyces cerevisiae with 6 samples.

Results

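The genes of peroxisome biogenesis and of fatty acid oxidation in budding yeast, Saccharomyces cerevisiae, were followed in a histone H2B mutant, K111A, with alanine at the site of a lysine, and in its wild type. They are 42 of the 5449 genes measured: 25 whose symbol is PEX and a number, and 17 listed genes of fatty acid entry, beta-oxidation, its side reactions and its control. Each was read by a single probe set, and all 42 sets carry the plain suffix that the array maker gives to sets without recognised shared sequence. The members were chosen by name and not by their values, though with earlier results of these data known. PEX19 was singled out with its change in these data known, so its difference is given first as a description.

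RNA was measured on 6 single-channel arrays, 3 of the wild-type strain PY014 and 3 of the mutant strain WY317, both harvested in mid-log growth in the rich, glucose-containing medium YPD. The labels give no other allele of either strain and do not say how the mutant histone gene is carried, whether the other H2B gene is present, or whether arrays of a strain came from separate cultures. The p-values therefore measure the spread between these arrays, which may be technical. Of the H2B genes, HTB1 had means of 1280 ± 40.5 (wild type) and 1204 ± 50.5 (mutant; SD, n = 3 each), while HTB2 lay near background in both, at 3.90 ± 0.17 and 3.73 ± 0.25.

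Peroxisomes are small organelles bounded by a single membrane, and in yeast they are the site of beta-oxidation, the stepwise shortening of fatty acids to acetyl-CoA. Peroxins, the products of PEX genes, insert the membrane proteins, import folded enzymes from the cytosol, and set the size and number of the organelles. Glucose represses the genes of beta-oxidation. Oleate induces them through the transcription factors Oaf1 and Pip2 together with Adr1. The arrays thus read the genes of beta-oxidation in a glucose-containing medium, with no array of oleate-grown cells to compare.

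The deposited values are linear probe set intensities that the authors had already brought to a common scale. Differences between strains were computed from log2(intensity + 32), a scale that shrinks changes of dim genes, and fold values beside them are ratios of mean intensities. They were tested with limma, two-sided, adjusting p by Benjamini-Hochberg across all 5449 genes, and called below 0.05. Background was taken as 3.7, the 99th percentile of 1746 probe sets on the same arrays. These carry 1 gene symbol whose gene identifier is absent from the RefSeq R64 table of this yeast. Probe sets differ in how strongly they bind, so intensities of different genes were not ranked against each other. Correlations over genes between arrays within a strain were 0.997 to 0.998, and array medians over genes lay between 7.56 and 7.59. On 14 pairs of control probe sets for Bacillus transcripts the 5' set minus the 3' set on the log2 scale averaged -0.47 ± 0.05 for wild type but -0.35 ± 0.05 for the mutant (SD, n = 3 each). The part of this control difference in the results below was not tested.

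The members past the threshold went in both directions, and most members did not pass. PEX19 and PEX5, which carry membrane and matrix proteins to the peroxisome, and PEX29 rose in the mutant. PXA1, FAA2 and FOX2, of fatty acid entry and oxidation, fell, as did PEX28 and the regulator OAF1. In counts, 3 of 42 members rose (7.14%, where 6.92% of all genes tested did) and 5 fell (11.9%, where 7.62% of all genes did). Together 8 passed, or 19.0%, beside 14.5% of all genes. The median log2 change was -0.02 over the members and -0.0005 over all genes, and the median size of change without regard to sign was 0.07 and 0.06.

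The values of the strains did not overlap for 21 members, with the mutant above for 9 and below for 12. That is 50% of the members, beside 36.7% of all genes, 18.2% with the mutant above and 18.6% with it below. Without wild-type array 1 the median log2 change of the members was 0.0032 in place of -0.02. At an unadjusted p under 0.05 there were 16 members (38.1%), beside 31.7% of all genes. The 95% interval of a member's log2 change, which is not adjusted for the number of genes, reached between 0.07 and 0.19 to either side. For some members that did not pass it excluded 0, as for PIP2 (0.04 to 0.21) and PEX14 (-0.20 to -0.03). For members whose interval held 0, a change within the interval could not be told from none.

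**Figure D1:**
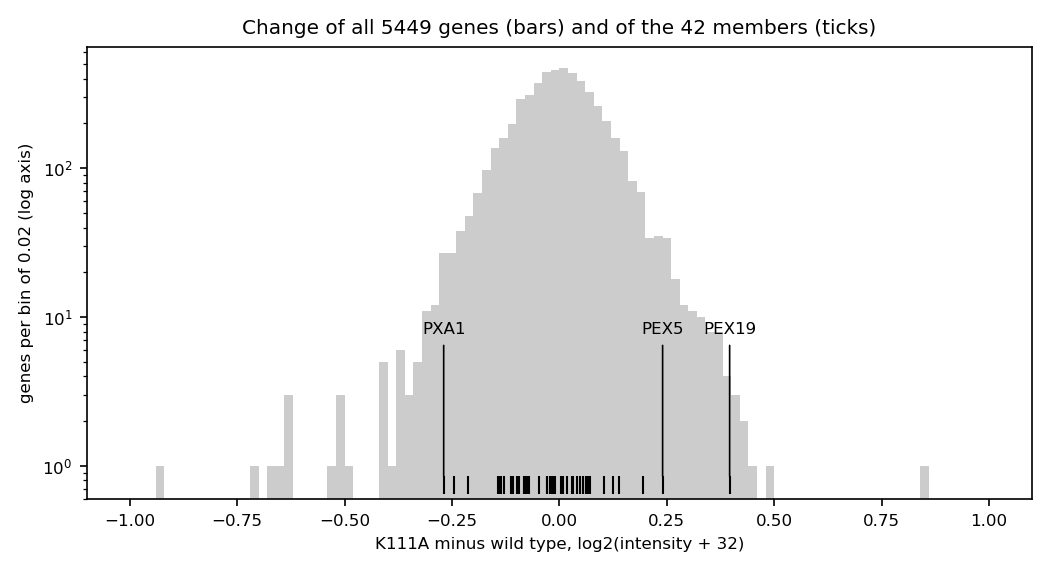
Histogram of the mutant minus wild-type difference in log2(intensity + 32) for all 5449 genes (grey bars, log axis) with a black tick at the bottom for each of the 42 members. Most members lie near 0, PEX19 lies at 0.40 among the largest rises of all genes, and PXA1 at -0.27 is the member furthest to the left.

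PEX19 encodes the cytosolic receptor and chaperone of peroxisomal membrane proteins, which it delivers to Pex3 in the membrane. It read 185.2, 160.4 and 176.4 on the wild-type arrays and 240.2, 232.2 and 244 on the mutant arrays. All mutant arrays lay above all wild-type arrays. The mean went from 174 ± 12.6 to 239 ± 6.02 (SD, n = 3 each), or 1.37-fold. The log2 change was 0.40 (SE 0.05, limma adjusted p = 0.00338), rank 10 among the rises of all 5449 genes. An exact permutation of the arrays gave a two-sided p of 0.1, and no smaller value is possible with 3 arrays per strain. Any gene without overlap between the strains reaches that value. PEX19 was picked with its rise known, so its p-values describe it and are no independent test. The call held with each array left out in turn, with log2 changes of 0.35 to 0.44 and adjusted p of up to 0.0195.

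Set against the other members array by array, PEX19 stood apart in each mutant array. Its log2 deviation from its wild-type mean was 0.40, 0.36 and 0.42 on the 3 mutant arrays, where the median deviation of the other 41 members was -0.04, -0.01 and -0.0061. The highest other member on those arrays lay at 0.20, 0.22 and 0.30. On the wild-type arrays PEX19 deviated by 0.08, -0.10 and 0.02. On arrays 1 and 3 this was inside the range of the other members. On array 2 it was below all of them, the lowest of which lay at -0.09. No test was run on this difference, because PEX19 had been picked for its rise.

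PEX3, the membrane anchor that docks Pex19, read 100.3, 105.3 and 107.2 in wild type and 108.6, 108.8 and 114.6 in the mutant. The strains did not overlap, but by little, and the log2 change of 0.07 did not pass (SE 0.04, adjusted p = 0.250, 95% interval -0.02 to 0.15). On the log2 scale of the tests, PEX19 minus PEX3 was higher by 0.33 in the mutant. The SD was 0.11 over the wild-type and 0.02 over the mutant arrays. Because this scale shrinks changes of dim genes, the value is not a log2 ratio of the intensities. PEX19 and PEX3 were paired for their known partnership after their values were seen.

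The genes beside PEX19 in the gene order of the RefSeq R64 table did not pass. On its upstream side lies UBC9, the SUMO-conjugating enzyme, which by its locus tag is read in the opposite direction away from PEX19. It read 331, 378.7 and 342.9 in wild type and 340.7, 320.5 and 324.2 in the mutant. The UBC9 values overlapped (log2 change -0.09, adjusted p = 0.276). Beyond it, SYO1, an import adaptor of ribosomal proteins, read 281.1, 276.5 and 273.8 against 235.3, 267 and 258, lower on every mutant array but with an adjusted p of 0.114. On the other side IDP1, the mitochondrial isocitrate dehydrogenase that makes NADPH, had a log2 change of 0.02 (679 ± 16.4 and 689 ± 17.1) and COX9, a subunit of cytochrome c oxidase, of -0.05 (598 ± 11.02 and 577 ± 20.9). Both overlapped between strains, with adjusted p of 0.737 and 0.400.

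**Figure D2:**
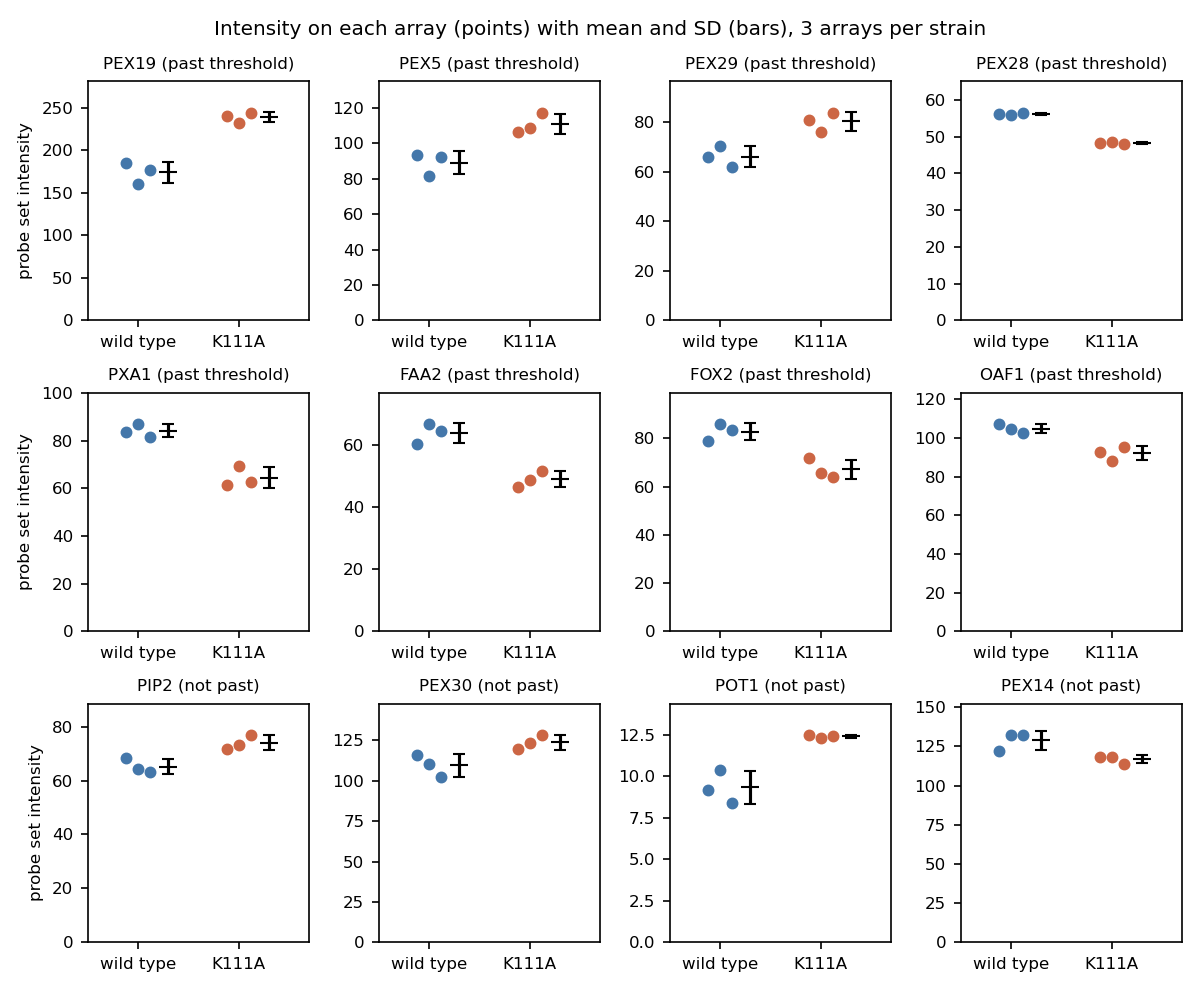
Probe set intensity on each array for the 8 members past the threshold and the 4 closest to it without passing. Blue points are the 3 wild-type arrays, orange points the 3 mutant arrays, and black marks the mean with its SD. These 12 members were picked by their p, and the strains overlap in none of them, beside 36.7% of all genes without overlap. PEX19 goes from 174 to 239.

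Among the import receptors PEX5 rose. Pex5 binds the C-terminal targeting signal that most matrix enzymes carry. It read 93.3, 81.4 and 92 in wild type and 106.4, 108.6 and 117.2 in the mutant, with no overlap. The mean rose 1.25-fold, from 88.9 ± 6.53 to 110.7 ± 5.71 (SD, n = 3 each; log2 change 0.24, SE 0.05, limma adjusted p = 0.0169). The call was lost without mutant array 3 (adjusted p = 0.0687).

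The receptor of the other, N-terminal signal did not pass. PEX7 read 146.5, 134 and 140 in wild type and 132, 142.9 and 139.1 in the mutant, an overlapping set of values (log2 change -0.02, 95% interval -0.11 to 0.07). PEX5 minus PEX7 on the log2 scale of the tests, again paired after their values were seen, was higher in the mutant by 0.26. The SD was 0.04 over the wild-type and 0.06 over the mutant arrays. PEX21, a co-receptor of Pex7, read 117 ± 4.03 and 124 ± 5.72 (SD, n = 3 each) and did not pass (adjusted p = 0.326). PEX18, the other co-receptor, read 3.1, 4.2 and 4.7 in wild type and 5, 5.3 and 4.8 in the mutant. It was the only member at or under background on any array, wild-type array 1, and its adjusted p was 0.439.

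None of the 4 docking and translocation genes passed. Pex13, Pex14 and Pex17 form the site at which the loaded receptors dock, and Pex8 joins it to the ubiquitin ligases from inside. PEX14 was closest, at 122, 132.4 and 132.2 in wild type and 118.2, 118.1 and 113.9 in the mutant. Its strains did not overlap, with a log2 change of -0.11 (SE 0.04, adjusted p = 0.0809). PEX8 had a log2 change of -0.09 (adjusted p = 0.215). PEX13 and PEX17 had changes of 0.06 and 0.03, with adjusted p of 0.595 and 0.737 and overlapping strains.

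The 6 genes that ubiquitinate and recycle the receptors did not pass either. Pex2 and Pex10 are RING ubiquitin ligases, Pex4 the conjugating enzyme with Pex22 as its anchor, and Pex6 an ATPase that pulls receptors out, with Pex15 as its anchor. Their log2 changes ran from -0.08 for PEX15 to 0.06 for PEX6. PEX15 read 64.9, 65.8 and 69.4 in wild type and 61.2, 60.7 and 61.9 in the mutant, without overlap, at an adjusted p of 0.136. PEX6 read 98.7, 106.2 and 107.1 against 109.9, 108.9 and 109.2, also without overlap, at 0.323. PEX2, PEX10, PEX4 and PEX22 overlapped between strains, with adjusted p of 0.366 to 0.880.

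Of the 9 genes that act on the size and number of peroxisomes, 1 rose and 1 fell. Over all genes 6.92% rose and 7.62% fell. Pex28 to Pex32 are membrane proteins of the endoplasmic reticulum that limit peroxisome number and size, and their genes split. PEX29 rose from 65.8, 70.6 and 62.1 to 81, 76.1 and 83.9 (1.21-fold, log2 change 0.19, SE 0.04, adjusted p = 0.0235). PEX28 was at 56.2, 55.8 and 56.5 in wild type and 48.3, 48.5 and 47.9 in the mutant. These values spread by less than 1 unit within a strain, and the fall was of 0.14 on the log2 scale in PEX28 (a ratio of wild type to mutant of 1.16, SE 0.03, adjusted p = 0.0239).

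PEX29 minus PEX28 on the log2 scale of the tests, paired after their values were seen, was higher in the mutant by 0.33. The SD was 0.07 over the wild-type and 0.06 over the mutant arrays. The calls of PEX29 and PEX28 both depended on the arrays. That of PEX29 was lost without wild-type array 1 or 3 or mutant array 1 or 3, and that of PEX28 without wild-type array 1 or mutant array 1, 2 or 3, with adjusted p of up to 0.0910 and 0.0878.

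The other 3 genes of this family did not overlap between strains but did not pass. PEX30 read 116.1, 110.4 and 102.1 in wild type and 119.6, 123.3 and 128.6 in the mutant (log2 change 0.14, SE 0.04, adjusted p = 0.0678). PEX31 read 77.6 ± 2.46 and 68.3 ± 5.55 (log2 change -0.13, adjusted p = 0.0886, past the threshold after quantile normalization) and PEX32 67.3 ± 2.501 and 62.1 ± 2.35 (log2 change -0.08, adjusted p = 0.183; SD, n = 3 each). PEX29 and PEX30 thus lay above wild type on every mutant array, and PEX28, PEX31 and PEX32 below. Of all genes, 18.2% lay above in this way and 18.6% below.

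None of the 4 genes of the Pex11 group, which elongate and divide peroxisomes, passed. PEX11 read 242.6, 215.4 and 192.5 in wild type, a wide spread, and 219.3, 204.1 and 219 in the mutant (log2 change -0.01, 95% interval -0.16 to 0.14). PEX25 had a log2 change of 0.02. PEX27 and PEX34 were lower on every mutant array, by -0.10 and -0.08 in log2 change, with adjusted p of 0.118 and 0.159.

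**Figure D3:**
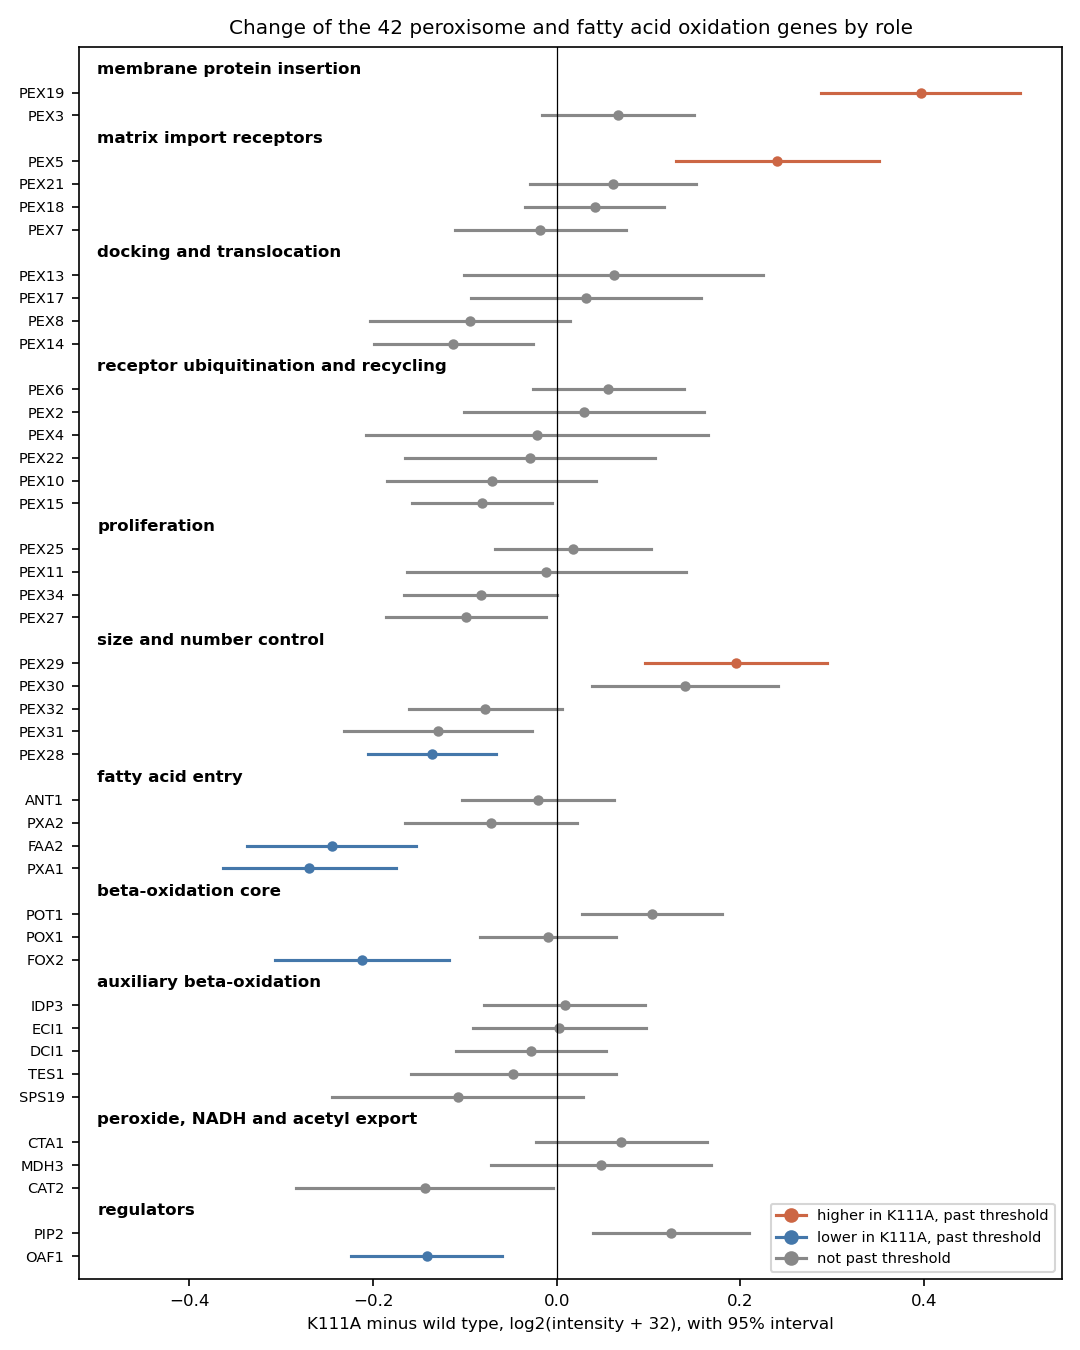
Mutant minus wild-type difference in log2(intensity + 32) with its 95% interval for each of the 42 members, grouped by role. Orange marks members past the threshold and higher in the mutant, blue those past it and lower, and grey the other 34. PEX19 has the highest value, 0.40, and PXA1 the lowest, -0.27.

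Among the 17 listed genes, no gene rose, where 6.92% of all genes did, and 4 fell (23.5%, where 7.62% of all genes did), namely PXA1, FAA2, FOX2 and OAF1. Fatty acids enter yeast peroxisomes either as acyl-CoA through the transporter formed by Pxa1 and Pxa2 or as free medium-chain acids that Faa2 activates inside. PXA1 read 83.9, 87.2 and 81.8 in wild type and 61.3, 69.4 and 62.9 in the mutant. Every mutant array lay below every wild-type array, and the fall was of 0.27 on the log2 scale (1.31-fold lower, SE 0.04, limma adjusted p = 0.00679). PXA1 was at rank 71 among the falls of all genes.

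PXA2, whose product pairs with Pxa1, read 40.2, 40.6 and 40.3 in wild type and 33.1, 38.1 and 39.5 in the mutant. The strains did not overlap, but mutant array 3 lay within 1 unit of the lowest wild-type value. The log2 change of -0.07 did not pass (limma adjusted p = 0.268, 95% interval -0.17 to 0.02). PXA1 minus PXA2 on the log2 scale of the tests, paired after their values were seen, was lower in the mutant, at -0.20 against wild type. The SD was 0.03 over the wild-type and 0.07 over the mutant arrays.

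FAA2 read 60.4, 66.9 and 64.6 in wild type and 46.4, 48.9 and 51.6 in the mutant. The strains were well separated, with a 1.31-fold lower mean in the mutant and a log2 change of -0.25 (SE 0.04, adjusted p = 0.00814). ANT1, the carrier that brings ATP into the peroxisome for this activation, read 177 ± 4 and 174 ± 6.13 (SD, n = 3 each) and overlapped (log2 change -0.02, 95% interval -0.10 to 0.06). The calls of PXA1 and FAA2 held with each array left out, with adjusted p of up to 0.0344 and 0.0308.

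The core enzymes of beta-oxidation did not move together. FOX2, the multifunctional hydratase and dehydrogenase of the middle steps, read 79, 86.1 and 83.3 in wild type and 71.7, 65.5 and 64.2 in the mutant. It was 1.23-fold lower without overlap (log2 change -0.21, SE 0.04, adjusted p = 0.0155), and its call was lost without mutant array 3 (adjusted p = 0.0670). POX1, the acyl-CoA oxidase of the first step, was dim, at 6.8, 6.7 and 5.6 in wild type and 5.7, 6.4 and 6.2 in the mutant, and overlapped. POT1, the thiolase of the last step, read 9.2, 10.4 and 8.4 against 12.5, 12.3 and 12.4, without overlap.

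The ratio of POT1 means was 1.33, but near such low intensities the log2(intensity + 32) scale gave a change of only 0.10 (SE 0.03, adjusted p = 0.0722), not past the threshold. With a pseudocount of 1 or 16, or with a variance prior that follows intensity, POT1 passed, at adjusted p down to 0.0282. In all, 7 members had a wild-type mean under the pseudocount of 32, where the scale is most compressed: POX1, POT1, SPS19, DCI1, IDP3, CTA1 and PEX18. Of these 7, 6 are among the 17 listed genes.

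None of the 5 auxiliary enzymes passed, and all overlapped between strains. SPS19, a dienoyl-CoA reductase, read 27.7 ± 2.48 and 23.5 ± 4.60, with a log2 change of -0.11 (adjusted p = 0.257). ECI1, the enoyl-CoA isomerase, read 44.8 ± 2.93 and 44.97 ± 2.45, DCI1, its close homologue, 10.3 ± 0.69 and 9.50 ± 1.21, the thioesterase TES1 63.4 ± 6.04 and 60.3 ± 2.68, and IDP3, which supplies NADPH inside the peroxisome, 17.97 ± 2.11 and 18.2 ± 0.25 (SD, n = 3 each). The log2 changes of these 4 lay between -0.05 and 0.01.

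The genes that deal with the products of beta-oxidation did not pass. CTA1, catalase A, which removes the hydrogen peroxide made by Pox1, read 13.6, 14.7 and 14.3 in wild type and 14, 17.2 and 18.4 in the mutant. MDH3, which reoxidises NADH, read 530.6, 546.4 and 475.6 against 544.1, 548.6 and 513.8. CAT2, the carnitine acetyltransferase that helps acetyl units leave, read 42.6, 56.2 and 46.5 against 41.5, 37.2 and 43.3. Each overlapped between strains, with log2 changes of 0.07, 0.05 and -0.14 and adjusted p of 0.278, 0.573 and 0.1497.

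The genes of the paired regulators lay on opposite sides of wild type. OAF1, whose product binds oleate, read 107.3, 104.3 and 102.5 in wild type and 92.6, 88 and 95.2 in the mutant, and fell by 0.14 on the log2 scale (a ratio of wild type to mutant of 1.14, SE 0.04, adjusted p = 0.0340). PIP2, whose product joins Oaf1 on oleate response elements, read 68.3, 64.3 and 63 against 71.7, 73.2 and 77. Its values did not overlap either, with the mutant above, but its log2 change of 0.12 missed the threshold (SE 0.04, adjusted p = 0.0553).

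PIP2 minus OAF1 on the log2 scale of the tests, paired after their values were seen, was higher in the mutant by 0.27. The SD was 0.02 over the wild-type and 0.04 over the mutant arrays. PIP2 passed after quantile normalization and after centring arrays on their medians, at adjusted p down to 0.0444. The call of OAF1 was lost when any array other than wild-type array 3 was left out, with adjusted p of up to 0.110.

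**Figure D4:**
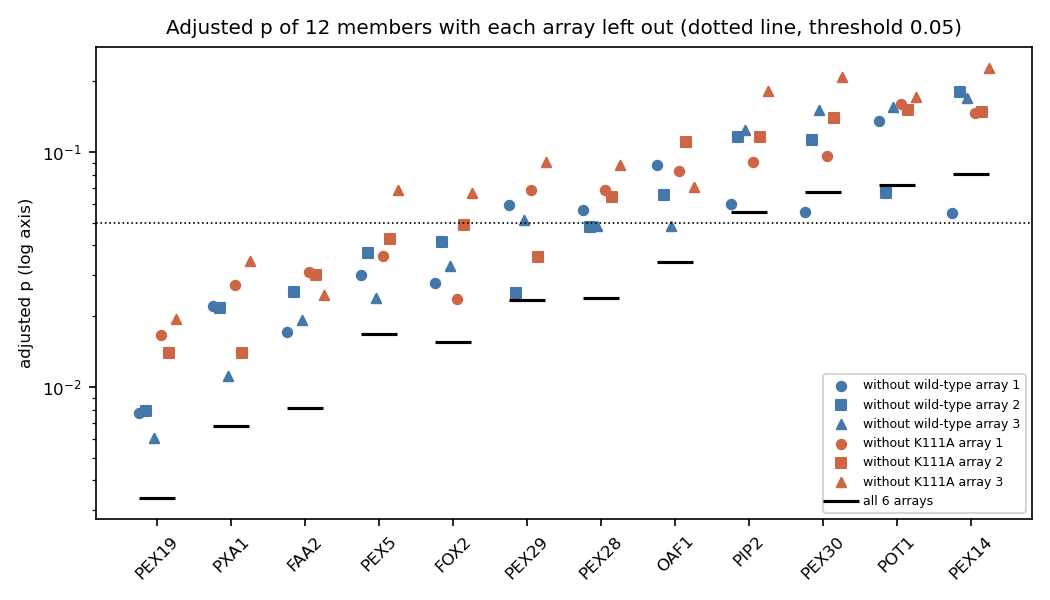
Adjusted p of limma for 12 members with all 6 arrays (black bars) and with each array left out in turn (blue, wild-type arrays; orange, mutant arrays; the marker shape gives the array number), on a log axis with the threshold of 0.05 dotted. PEX19, PXA1 and FAA2 stay under the line in all 6 cases, with highest values of 0.0195, 0.0344 and 0.0308.

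Few of the further genes of the pathway outside the member list passed. Of 74 measured genes in 8 lists, 2 rose and 3 fell, together 6.76% beside the 14.5% of all genes, a difference that was not tested. The median size of their log2 changes was 0.06, as over all genes. None of 14 other peroxisomal proteins passed, nor of 8 genes of peroxisome division and inheritance, 11 of carnitine, acetyl-CoA and glyoxylate use, 9 regulators of the oleate and retrograde programmes, or 9 of fatty acid synthesis. ADR1, the activator that acts beside Oaf1 and Pip2, read 84.2 ± 9.36 and 86.1 ± 1.66 (SD, n = 3 each, adjusted p = 0.779). It was picked out for its known role after its value was seen.

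Among 12 acyl-CoA synthetases, lipases and acyl-CoA binding genes, 1 rose (8.33%, where 6.92% of all genes did) and 2 fell (16.7%, where 7.62% did). FAA3, a long-chain acyl-CoA synthetase, read 216.8, 206.3 and 231.7 in wild type and 155.9, 172 and 183.4 in the mutant (1.28-fold lower, log2 change -0.31, adjusted p = 0.0125). TGL2, a mitochondrial lipase, read 46.1, 49 and 43.6 against 36.4, 34.7 and 34.2 (adjusted p = 0.00884), and YEH2, a steryl ester hydrolase, 201.3, 190 and 193 against 214.5, 217.3 and 227.9 (adjusted p = 0.0309). None of the 3 overlapped between strains. The call of YEH2 was lost without any array other than wild-type array 1, with adjusted p of up to 0.112.

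In 6 genes of the GET pathway, which targets tail-anchored membrane proteins, SGT2 rose from 599, 586.8 and 586.9 to 689.2, 672.5 and 689.8 (1.16-fold, log2 change 0.20, adjusted p = 0.00748). Pex19 is farnesylated at its C-terminus, and the list of farnesylation and receptor-cycle genes held 8 measured genes, of which RCE1, a protease that trims farnesylated proteins, fell. It read 91.8, 90.4 and 93.6 in wild type and 70.4, 72 and 71.6 in the mutant (1.29-fold lower, log2 change -0.26, adjusted p = 0.00343). RAM1, a subunit of the farnesyltransferase itself, read 127 ± 2.67 and 137.5 ± 5.66 (SD, n = 3 each) and did not pass (adjusted p = 0.140), and it was picked out for its known role after its value was seen. The calls of SGT2 and RCE1, each the only one of its list, held with each array left out. Of all genes, 6.92% rose and 7.62% fell.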

How the data were processed

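Per the labels' protocols, biotin-labelled cRNA was made from total RNA. The authors deposited linear probe set intensity values already on a common scale; for the software, the summary and the scaling method, the sources used here state nothing. The array annotation pairs 7244 of 10928 probe sets with 1 symbol. Of these, 5498 matched a gene of the RefSeq R64 table by gene identifier, and the brightest set was kept for 47 genes with several, which left 5449 genes. Values were taken as log2(intensity + 32) and fitted in R 4.3.3 with limma 3.58.1 (lmFit, then eBayes), with 8.91 degrees of freedom, a two-sided test and Benjamini-Hochberg adjustment over all genes. How few arrays there are limits the precision. On 10 simulated data sets with the spreads of these 5449 genes the fit recovered 36.6% of simulated log2 changes sized 0.15. It recovered 84.9% of changes sized 0.3 and 97.2% of changes sized 0.6. Over all sizes together, 4.81% of the calls were false. The simulations dealt the spreads to genes at random and changed a smaller share of genes than the 14.5% called here. Recovery in these data may differ. The members, the lists of further genes and the roles were chosen with earlier results of these data known. The genes fixed to be named with values on every array were PEX19, each member past the threshold, the 4 closest without passing, any member at background on some array, OAF1 and PIP2, the 2 genes on each side of PEX19, and the passing genes of the further lists (at most 4 each by p); array values of other members were added after their values were seen, and other genes are marked. Of the further genes, PXP1, PXP2 and FEN1 were not matched and are not analysed here. Planned counts of promoter elements and C-terminal residues were not made. The alternatives were other scalings and pseudocounts, removal of dim genes, a replicate block, another variance prior, weights for arrays, the mean of probe sets, and each array left out. Figures were drawn with matplotlib 3.10.9.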

Additional observations from a re-analysis of the deposited data

How the results depend on the processing

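Among the 10 settings other than leaving out an array, PEX19 kept its direction and its call in all, with log2 changes of 0.35 to 0.46, and none of the 8 members past the threshold, PIP2, PEX30, POT1, PEX14 and PEX18 changed direction under these settings or with an array left out. Of the other members 11 did under at least 1 setting, none of them past the threshold and all with a reported log2 change of at most 0.05 in size. A pseudocount of 1 gave 489 genes past the threshold (232 higher, 257 lower) in place of 792 (377 and 415), and 1 further-list gene higher in place of 2. Same-numbered arrays of the strains did not deviate together (correlations -0.23, -0.06 and -0.17). With 3 arrays per strain this cannot settle whether the number marks a pairing. With the replicate number as a block 346 genes passed (170 higher, 176 lower). Among the members 2 were higher in place of 3 and 3 lower in place of 5, with the calls of PEX29, PEX28 and OAF1 lost. Among the further-list genes 1 was higher in place of 2. Leaving out each array in turn gave 213 to 559 genes in all, with 91 to 271 higher and 122 to 294 lower. Of the members 1 to 3 were higher and 2 to 5 lower, and of the further-list genes 1 to 2 higher and 3 to 8 lower. The fewest came without mutant array 3, where PEX19, PXA1 and FAA2 were the members that still passed. The median log2 change of the members ran from -0.034 to 0.0032, and that of PEX19 from 0.35 to 0.44. The causes of these shifts were not tested, though fewer arrays were fitted. Groups of 3 arrays were not tested for outlying arrays. Signal near background limits PEX18, and low intensity POX1 and POT1.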
